A study of Homo sapiens with 8 samples.

Results

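The nuclear-encoded subunits of the mitochondrial respiratory chain and ATP synthase were followed through the 4-OHT response of fibroblast clones with and without the small nucleolar RNA SNORA13. Members were the protein-coding rows whose gene name belongs to the families NDUFA, NDUFB, NDUFC, NDUFS and NDUFV, SDHA to SDHD, UQCR and CYC1, the cytochrome c oxidase families COX4 to COX8, or ATP5. There were 87 members among 58825 genes, with 37 in complex I, 4 in complex II, 10 in complex III, 17 in complex IV and 19 in complex V. Complexes were assigned by gene name in all counts, medians and sums. NDUFA4, now known as a complex IV subunit, is therefore counted in complex I, and the inhibitor ATP5IF1 in complex V. Of these, 76 had enough reads to be tested (35, 3, 10, 11 and 17 in that order of complexes), among 16540 genes tested.

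The respiratory chain passes electrons from NADH and succinate to oxygen. Complexes I and II feed ubiquinone, complex III passes the electrons on to cytochrome c, and complex IV reduces oxygen, while the protons pumped on the way drive the ATP synthase, complex V. Most subunits are encoded in the nucleus and imported, and a small set of core subunits is encoded by mitochondrial DNA, so each complex except complex II draws on both genomes. In human cells many nuclear subunit genes are known targets of the transcription factors NRF1, GABPA and YY1 and of a coactivator encoded by PPARGC1A.

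The cells were BJ human skin fibroblasts carrying HRAS, an established line that the labels name BJ-HRAS. SNORA13 knockout (KO) clones 66 and 69 were compared with wild-type (WT) clones 15 and 54, each clone with and without (Z)-4-hydroxytamoxifen (4-OHT) at 100 nM for 7 days. That gave 8 total RNA libraries in 4 groups of 2 clones: KO with 4-OHT, KO without it, WT with 4-OHT and WT without it. 4-OHT is a ligand used to switch on proteins fused to a modified estrogen receptor; how HRAS is driven in these cells is not given in the labels. Every group carries HRAS, so effects of the compound itself and of HRAS cannot be told apart. The labels call the clones independent, and each genotype rests on 2 clones, so a p-value here measures the spread between clones of a group and a difference between genotypes may be a difference between the clones picked. SNORA13 itself had 0 reads in each of the 4 KO libraries, which allows up to 3 reads a library, and 5 and 7 reads in WT clones 15 and 54 with 4-OHT and 6 and 4 reads without it.

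Library totals were 22.1 to 24.9 M reads, and the members together took 0.627% to 0.778% of them. The 10 fibroblast markers summed to 1790 to 2100 RPKM in KO clones and 1910 to 1930 RPKM in WT clones with 4-OHT, against 3830 to 4040 RPKM in KO clones and 4070 to 4290 RPKM in WT clones without it. Epithelial, endothelial, immune and melanocyte or neural marker lists reached at most 3.89 RPKM in sum in any library, and 2 of 5 epithelial and 1 of 4 immune markers had 0 reads throughout. Values below are RPKM, reads per kilobase of the listed transcript and per M library reads, after scaling between libraries. They are given for clones 66 and 69 in that order in KO groups and for clones 15 and 54 in WT groups. Changes are log2 differences of group means with their standard errors, and "called" means a Benjamini-Hochberg adjusted p under 0.05 over all genes tested in the limma fit.

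Promoter sequences are shown for 6 members on which the results turn: the complex III and V subunits UQCRC1 and ATP5PO, whose responses differed between genotypes; the complex II subunits SDHA and SDHB; and the complex I subunits NDUFB4 and NDUFS6, which rose in both genotypes. Of the 87 members, 67 matched a promoter in RefSeq (GRCh38.p14, 250 bases before to 50 bases after the start of transcription). The core of the NRF1 motif, the letters GCGCA and GCGC separated by any 1 base, stood on either strand in 23.9% of the 67 member promoters and in 6.28% of all 27305 promoters. The GABPA and ETS letters CCGGAAG stood in 28.4% of member promoters against 10.7% of all, and the YY1 letters AAGATGG in 23.9% against 6.06%. An E-box, CACGTG, stood in 10.4% against 7.43%. The 3 capitalised motifs below were searched separately, and capitals mark their letters on the strand shown, 5′ to 3′. UQCRC1 is at chr3:48609597-48609896 (minus strand) with 1 NRF1 and 1 YY1 match. ATP5PO is at chr21:33915755-33916054 (minus strand), also with 1 of each. SDHA is at chr5:218070-218369 (plus strand) with 4 NRF1 matches. SDHB is at chr1:17053983-17054282 (minus strand) with 1 ETS and 1 YY1 match. NDUFB4 is at chr3:120596086-120596385 (plus strand) with 3 NRF1 matches. NDUFS6, at chr5:1801157-1801456 (plus strand), holds none of these letters.
UQCRC1: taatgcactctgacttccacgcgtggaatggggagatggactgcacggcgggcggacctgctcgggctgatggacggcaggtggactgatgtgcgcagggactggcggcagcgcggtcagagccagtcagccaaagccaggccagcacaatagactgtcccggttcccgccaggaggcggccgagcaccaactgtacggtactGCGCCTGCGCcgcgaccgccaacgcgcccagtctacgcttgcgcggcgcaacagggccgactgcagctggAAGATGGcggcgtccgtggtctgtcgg
ATP5PO: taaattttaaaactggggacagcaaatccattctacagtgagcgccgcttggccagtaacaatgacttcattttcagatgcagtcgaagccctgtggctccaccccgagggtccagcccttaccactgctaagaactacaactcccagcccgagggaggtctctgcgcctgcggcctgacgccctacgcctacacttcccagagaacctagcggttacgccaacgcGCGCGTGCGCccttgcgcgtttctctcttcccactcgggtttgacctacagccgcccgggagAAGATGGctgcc
SDHA: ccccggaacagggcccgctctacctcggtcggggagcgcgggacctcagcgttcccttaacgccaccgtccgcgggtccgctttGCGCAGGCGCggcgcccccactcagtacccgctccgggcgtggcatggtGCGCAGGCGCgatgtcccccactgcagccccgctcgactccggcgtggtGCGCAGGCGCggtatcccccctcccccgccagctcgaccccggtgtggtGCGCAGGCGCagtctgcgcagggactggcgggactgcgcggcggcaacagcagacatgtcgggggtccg
SDHB: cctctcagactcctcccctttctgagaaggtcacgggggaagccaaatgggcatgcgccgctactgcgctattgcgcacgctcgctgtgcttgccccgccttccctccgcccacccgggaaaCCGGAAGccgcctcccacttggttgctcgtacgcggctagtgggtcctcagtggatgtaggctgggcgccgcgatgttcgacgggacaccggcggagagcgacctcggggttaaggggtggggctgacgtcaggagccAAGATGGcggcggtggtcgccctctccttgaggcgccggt
NDUFB4: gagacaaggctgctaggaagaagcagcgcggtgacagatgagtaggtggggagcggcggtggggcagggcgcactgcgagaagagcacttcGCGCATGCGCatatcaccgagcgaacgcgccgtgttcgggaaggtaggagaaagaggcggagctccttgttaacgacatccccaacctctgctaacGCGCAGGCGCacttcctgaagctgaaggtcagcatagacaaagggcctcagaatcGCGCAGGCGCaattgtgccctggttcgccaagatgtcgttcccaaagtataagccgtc
NDUFS6: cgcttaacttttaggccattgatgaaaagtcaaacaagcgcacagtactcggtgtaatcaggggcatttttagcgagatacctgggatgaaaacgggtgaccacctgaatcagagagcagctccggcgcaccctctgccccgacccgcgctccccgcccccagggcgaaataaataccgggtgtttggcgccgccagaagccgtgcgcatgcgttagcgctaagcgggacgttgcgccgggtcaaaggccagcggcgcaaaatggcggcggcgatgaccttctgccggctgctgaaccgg

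A match is a string of letters and not a measured binding site. Among the 17 matched members called higher with 4-OHT in both genotypes, 4 (23.5%) held the NRF1 letters, 3 (17.6%) the GABPA and ETS letters and 5 (29.4%) the YY1 letters. Among the 26 matched members that were tested and called higher in neither genotype the counts were 5 (19.2%), 9 (34.6%) and 6 (23.1%). Both sets exceeded the share in all promoters for each of the 3 strings, and the sets are too small to set them against each other. All promoters include those of genes not expressed here, and the share among tested genes was not computed.

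Libraries of a group were not equally close for these genes. Without 4-OHT, WT clone 54 read lower than WT clone 15 in 52 of the 76 tested members (median log2 difference -0.08, against -0.01 over all genes tested). Among members whose listed transcript is under 1 kb, 31 of 38 were lower in clone 54 (median -0.18), against 21 of 38 longer ones (median -0.03); over all protein-coding genes under 1 kb the median was -0.06. In KO clones without 4-OHT the split was more one-sided and the median smaller, with 57 of 76 members higher in clone 69 than in clone 66 (median 0.04), 29 of 38 short and 28 of 38 long. Clone 69 was higher in 40 of 76 members in KO clones with 4-OHT (median 0.00), and clone 54 in 46 of 76 in WT clones with 4-OHT (median 0.06). The signal recognition particle RNA, an abundant short noncoding RNA, took 16.1% and 14.8% of reads in KO clones with 4-OHT and 9.74% and 15.4% in WT clones with 4-OHT, against 9.28% and 10.1% in KO clones and 9.2% and 9.6% in WT clones without it. The part of length, RNA quality or this RNA in the results was not tested; the counts below are also given without WT clone 54 where that matters.

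**Figure D1:**
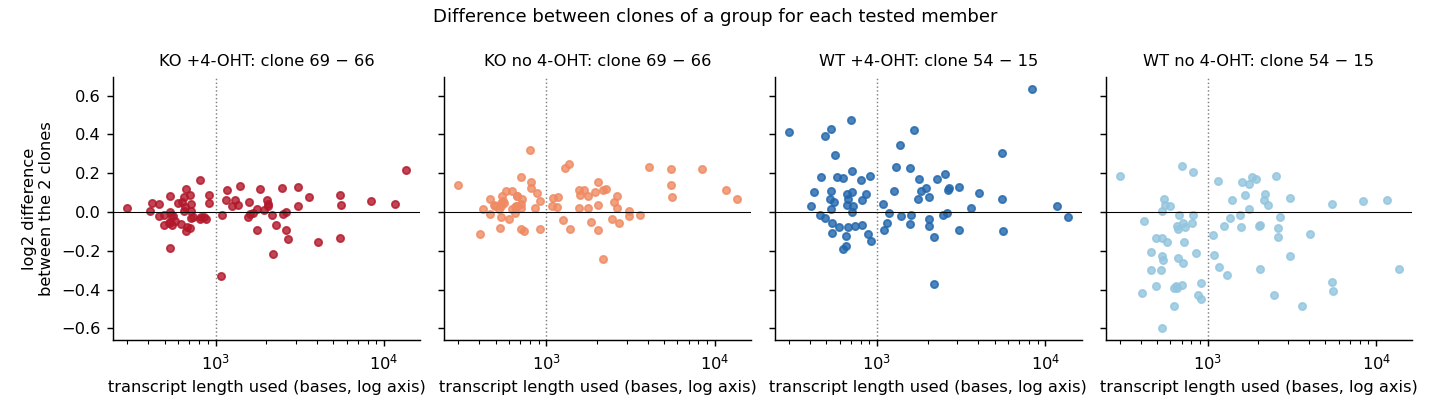
Log2 difference between the 2 clones of each group (vertical axis) for 75 tested members with a mean of at least 0.5 RPKM, against the length of the transcript used for RPKM (bases, log axis; the dotted line marks 1000 bases). In WT clones without 4-OHT most short members lie below 0, and in KO clones without 4-OHT most members lie a little above 0; the medians of the groups are -0.08 and 0.04.

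In both genotypes more respiratory chain messages were higher than lower with 4-OHT, by moderate amounts. In KO clones 36 of 76 members rose and 6 fell, beside 28.7% and 26.9% of all genes tested (55.7% in either direction). In WT clones 28 rose and 3 fell, beside 25.2% and 23.7% of all genes (48.9% in either direction). The shares of members called higher were 47.4% in KO and 36.8% in WT, and those called lower were 7.89% in KO and 3.95% in WT, so that a call in the lower direction was rarer among members than among all genes. The median member changed by 0.25 (1.19-fold) in KO clones and by 0.21 (1.15-fold) in WT clones, where the median of all genes was 0.00 in KO clones and -0.00 in WT clones. The fibroblast marker sums given above were lower with 4-OHT in both genotypes, and the part of what lowered them in the member counts was not tested. In bulk RNA, a change in the make-up of the cells and a change in RNA per cell cannot be told apart. The WT median was 0.30 without the untreated library of WT clone 15 and 0.09 without both libraries of WT clone 54 (then with 22 members higher and 4 lower).

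Summed over members, 7624 and 7654 reads per M of TMM-scaled library total mapped to these genes in KO clones with 4-OHT, against 6142 and 6374 in KO clones without it. In WT clones the sums were 7702 and 7952 with 4-OHT, against 6750 and 6315 without it. All 4 libraries with 4-OHT were above all 4 without it; within a genotype, a two-sided exact permutation test of 2 clones against 2 gave p = 0.333, the smallest it allows. The ratio of group means was 1.22 in KO and 1.20 in WT.

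By complex, the ratio of summed reads with 4-OHT over without was 1.34 in KO and 1.30 in WT for complex III, and 1.28 in KO and 1.31 in WT for complex II. It was 1.22 in both genotypes for complex V, 1.19 in KO and 1.18 in WT for complex I, and 1.15 in KO and 1.07 in WT for complex IV. A sum follows its most abundant members. In complex II, SDHB had 1417 to 2628 reads a library, against 875 to 1248 for SDHC and 246 to 353 for SDHA. The complex II ratio therefore mostly follows SDHB. SDHC was called in neither genotype, and SDHA was called higher in KO clones alone. In complex V, ATP5F1A and ATP5F1B took 41.9% to 48.8% of the complex V reads of a library. The sum of the other complex V members had a ratio of 1.09 in KO and 1.21 in WT. The median complex V member changed by 0.04 (1.03-fold) in KO clones and by 0.23 (1.18-fold) in WT clones. Complex III sums were 1232 ± 21.9 (SD, n = 2) in KO clones with 4-OHT against 918.9 ± 23.5 in KO clones without it, and 1274 ± 2.12 in WT clones with 4-OHT against 978.9 ± 46.8 in WT clones without it. Complex IV was the exception to clean separation: its sums were 986.9 and 1101 in WT clones with 4-OHT against 1037 and 916.3 in WT clones without it, which overlap, whereas in KO clones 1101 and 1115 with 4-OHT lay above 939.5 and 980.4 without it.

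**Figure D2:**
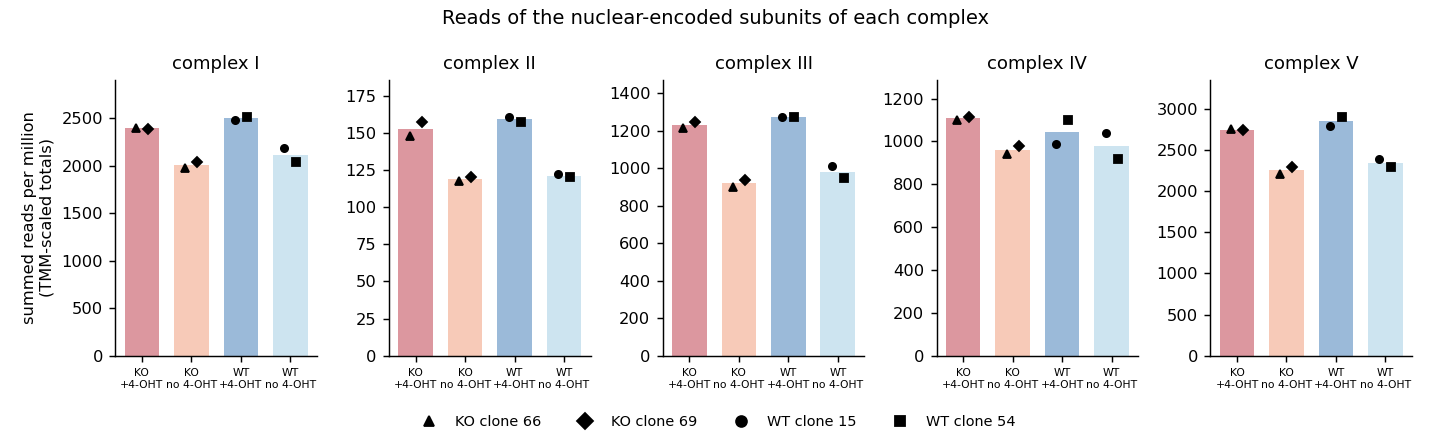
Summed reads of the nuclear-encoded subunits of each complex, per M reads of TMM-scaled library totals (vertical axes start at 0), in the 4 groups; bars are means of 2 clones and points the clones. The sums are higher with 4-OHT in both genotypes except in WT clones for complex IV, where the clones overlap.

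**Figure D3:**
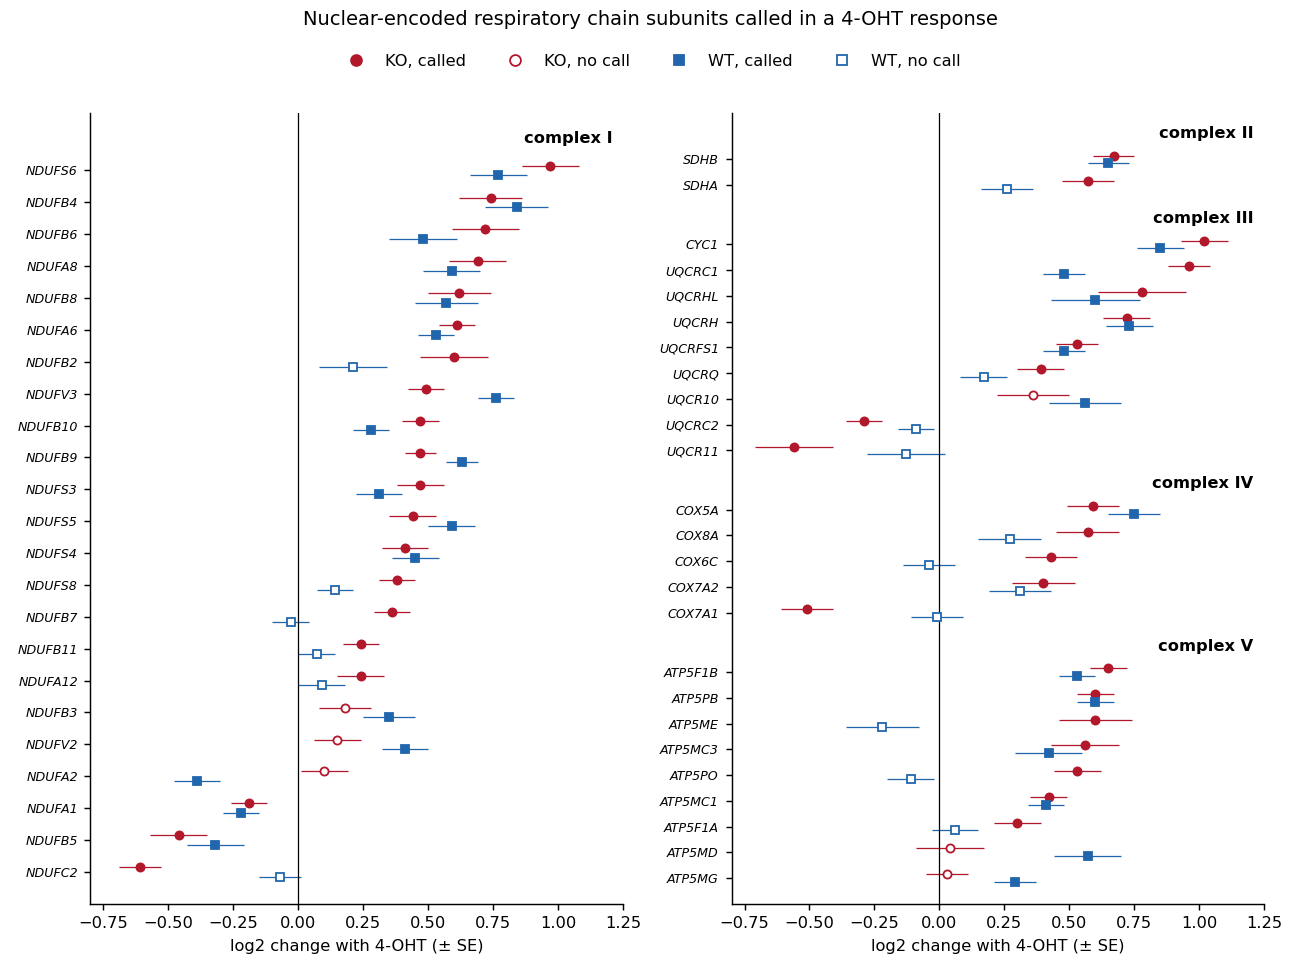
Log2 change with 4-OHT (horizontal axis, ± SE) of each of the 48 members called in at least 1 genotype, by complex and ordered by the KO change; circles are KO and squares WT clones, and filled symbols are called at an adjusted p under 0.05. CYC1, UQCRC1 and NDUFS6 are farthest to the right in KO clones, and NDUFC2, UQCR11 and COX7A1 farthest to the left.

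Of the members that rose, 23 rose in both genotypes, which is 63.9% of the KO list and 82.1% of the WT list, beside 67.9% in KO and 77.4% in WT over all genes tested. The other rises were called in KO clones alone (13 members) or in WT clones alone (5 members). Of the falls, 2 were shared, which is 33.3% of the KO list and 66.7% of the WT list, beside 67.5% in KO and 76.8% in WT over all genes, with 4 in KO clones alone and 1 in WT clones alone. No member was called in opposite directions. A call in 1 genotype alone does not show a difference between them; that difference has its own test. The KO and WT responses share no library, but the fit takes each gene's spread from all 8 libraries. The KO and WT lists of calls are therefore not independent.

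Complex I, the NADH dehydrogenase, had 17 of 35 tested subunits higher and 3 lower in KO clones, and 14 higher and 3 lower in WT clones. In KO clones that is 48.6% higher and 8.57% lower, beside 28.7% and 26.9% of all genes. In WT clones it is 40% higher and 8.57% lower, beside 25.2% and 23.7% of all genes. NDUFS6, an accessory subunit that carries a zinc site in the peripheral arm, measured 120.2 and 95.7 RPKM in KO clones with 4-OHT, against 54.2 and 55.4 RPKM in KO clones without it. WT clones had 109.9 and 113 RPKM with 4-OHT, against 68.04 and 62.6 RPKM without it. The libraries with 4-OHT were all above those without it, and NDUFS6 rose by 0.97 ± 0.11 in KO clones (SE, adjusted p = 0.000258) and by 0.77 ± 0.11 in WT clones (adjusted p = 0.00103). NDUFB4, an accessory subunit of the membrane arm, had 268 and 283 RPKM in KO clones with 4-OHT, against 165 and 165 RPKM in KO clones without it. WT clones had 305 and 279.9 RPKM with 4-OHT, against 186 and 143 RPKM without it. It rose in both genotypes without overlap, by 0.74 in KO clones (adjusted p = 0.00168) and 0.84 in WT clones (adjusted p = 0.00116).

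NDUFV3, a small subunit beside the NADH-binding site, read 24.96 and 26.1 RPKM in KO clones with 4-OHT, against 18.8 and 17.6 RPKM in KO clones without it. WT clones had 34.5 and 32.8 RPKM with 4-OHT, against 20.4 and 19.4 RPKM without it. Its rise was 0.76 ± 0.07 in WT clones, with the smallest adjusted p among members there (0.000184), and 0.49 ± 0.07 in KO clones (adjusted p = 0.00107). NDUFB9, a membrane-arm subunit, had 78.8 and 77.3 RPKM in KO clones with 4-OHT, against 55.8 and 56.7 RPKM in KO clones without it. WT clones had 83.9 and 80.5 RPKM with 4-OHT, against 53.4 and 52.8 RPKM without it. It rose by 0.47 in KO clones and 0.63 in WT clones, and both groups with 4-OHT were clear of those without it. The other complex I subunits called higher in both genotypes were NDUFA6, NDUFA8, NDUFB6, NDUFB8, NDUFB10, NDUFS3, NDUFS4 and NDUFS5, with changes of 0.41 to 0.72 in KO clones and 0.28 to 0.59 in WT clones. In KO clones NDUFS4 lost its call without either library of KO clone 66 (adjusted p = 0.0524 with the 4-OHT library left out and 0.0543 with the untreated one). In WT clones the calls of NDUFB6, NDUFB10 and NDUFS3 were each lost without 1 or more WT libraries (adjusted p 0.0527 to 0.127), and those of NDUFA8 and NDUFB8 without both libraries of WT clone 54 (0.0515 and 0.0599). NDUFS3 is a core subunit and NDUFS4 an accessory subunit known from inherited complex I deficiency.

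Among the core subunits calls differed from gene to gene. NDUFV1, the subunit that binds NADH and FMN, had 38.9 and 38.6 RPKM in KO clones with 4-OHT, against 32.04 and 33.2 RPKM in KO clones without it. WT clones had 32.6 and 37.3 RPKM with 4-OHT, against 37.5 and 42.7 RPKM without it. Its KO values were higher and its WT values lower with 4-OHT, and neither difference passed the threshold (0.25 ± 0.09 in KO, adjusted p = 0.0567; -0.20 ± 0.09 in WT, adjusted p = 0.121). NDUFS1, the largest core subunit with several iron-sulfur clusters, read 12.8 and 13.2 RPKM in KO clones with 4-OHT, against 11.2 and 12.1 RPKM in KO clones without it. WT clones had 13.1 and 13.4 RPKM with 4-OHT, against 12.4 and 12.9 RPKM without it. All 8 values lay between 11.2 and 13.4 RPKM, and it was called in neither genotype. NDUFV2, another iron-sulfur subunit, was called higher in WT clones alone (0.41 ± 0.09, adjusted p = 0.00587; in KO 0.15 ± 0.09, adjusted p = 0.175), and the core subunit NDUFS8 in KO clones alone (0.38 ± 0.07, adjusted p = 0.00279; in WT 0.14 ± 0.07, adjusted p = 0.137).

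Some complex I members went the other way. NDUFC2, a membrane-arm subunit, had 32.4 and 32.0 RPKM in KO clones with 4-OHT, against 47.4 and 51.3 RPKM in KO clones without it. WT clones had 45.6 and 41.7 RPKM with 4-OHT, against 44.7 and 46.7 RPKM without it. It fell by 0.61 in KO clones (adjusted p = 0.000416), where the groups did not overlap, and was not called in WT clones (-0.07 ± 0.08, adjusted p = 0.514), where they did. NDUFB5, a membrane-arm subunit, read 13.03 and 11.7 RPKM in KO clones with 4-OHT, against 15.7 and 18.5 RPKM in KO clones without it. WT clones had 12.8 and 13.8 RPKM with 4-OHT, against 17.2 and 15.9 RPKM without it. It was lower with 4-OHT in every clone and fell in both genotypes (-0.46 ± 0.11 in KO, adjusted p = 0.00784; -0.32 ± 0.11 in WT, adjusted p = 0.0413). NDUFA1, a small membrane-arm subunit encoded on the X chromosome, measured 122 and 126 RPKM in KO clones with 4-OHT, against 141 and 142 RPKM in KO clones without it. WT clones had 127 and 137 RPKM with 4-OHT, against 156 and 151 RPKM without it. It fell by 0.19 in KO clones (adjusted p = 0.047) and by 0.22 in WT clones (adjusted p = 0.0303). NDUFA2, an accessory subunit of the peripheral arm, was at 52.8 and 51.1 RPKM in KO clones with 4-OHT, against 46.8 and 50.5 RPKM in KO clones without it. WT clones had 41.6 and 47.1 RPKM with 4-OHT, against 61.3 and 54.98 RPKM without it. It fell in WT clones alone (-0.39 ± 0.09, adjusted p = 0.0101; in KO 0.10 ± 0.09, adjusted p = 0.409). Each WT call of a fall was lost when the 4-OHT library of WT clone 15 was left out (adjusted p = 0.0616 for NDUFA2, 0.148 for NDUFA1 and 0.166 for NDUFB5), and those of NDUFA1 and NDUFB5 also with the clone as a block (0.0508 and 0.0709) and without the untreated library of WT clone 15 (0.0789 and 0.147). In KO clones, NDUFA1 was lost without any 1 of the 4 KO libraries (adjusted p 0.104 to 0.185) and with the block (0.0732), and NDUFB5 without either library of KO clone 69 (0.0529 with the 4-OHT library left out and 0.0578 with the untreated one). For NDUFB5 in WT clones, leaving out the 4-OHT library or the untreated library of clone 54 also ended the call (0.0729 and 0.0519).

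Complex II, succinate dehydrogenase, is made by 4 nuclear genes. SDHB, its iron-sulfur subunit, had 80.0 and 83.5 RPKM in KO clones with 4-OHT, against 50.9 and 51.7 RPKM in KO clones without it. WT clones had 90.6 and 87.2 RPKM with 4-OHT, against 53.6 and 59.9 RPKM without it. The 4-OHT libraries were all higher, and SDHB rose by 0.67 ± 0.08 in KO clones (adjusted p = 0.000258) and 0.65 ± 0.08 in WT clones (adjusted p = 0.000422). SDHA, the flavoprotein that oxidises succinate, read 5.93 and 5.37 RPKM in KO clones with 4-OHT, against 3.86 and 3.70 RPKM in KO clones without it. WT clones had 5.003 and 5.46 RPKM with 4-OHT, against 4.38 and 4.29 RPKM without it. It rose in KO clones (0.57 ± 0.10, adjusted p = 0.0026) and missed the threshold in WT clones (0.26 ± 0.10, adjusted p = 0.0696), although the WT groups did not overlap; SDHA has near-identical pseudogene copies, so its reads are uncertain. SDHC, a membrane anchor, measured 2.92 and 3.41 RPKM in KO clones with 4-OHT, against 3.55 and 3.73 RPKM in KO clones without it. WT clones had 3.14 and 3.09 RPKM with 4-OHT, against 3.57 and 2.89 RPKM without it. Its KO values were lower with 4-OHT and its WT values overlapped, with no call in either (adjusted p = 0.264 in KO and 0.827 in WT). SDHD, the other anchor, had 5 reads in all 8 libraries together and was not tested; 29.8% of its listed transcript overlaps another annotated gene on the same strand, and the part of that overlap in its low count was not tested.

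Complex III, the cytochrome bc1 complex, had the largest median change in WT clones of the 5 complexes (0.48, against 0.46 in KO clones). In each genotype 6 of 10 members were higher (60%), beside 28.7% of all genes in KO and 25.2% in WT clones. The shares lower were 20% in KO and 0% in WT clones, beside 26.9% and 23.7% of all genes. CYC1, the cytochrome c1 heme protein, was at 65.4 and 71.1 RPKM in KO clones with 4-OHT, against 34.2 and 33.1 RPKM in KO clones without it. WT clones had 72.5 and 78.2 RPKM with 4-OHT, against 39.2 and 44.4 RPKM without it. These were the largest rises of any member, 1.02 ± 0.09 in KO clones (2.02-fold, adjusted p = 7.14e-05) and 0.85 ± 0.09 in WT clones (1.8-fold, adjusted p = 0.000232). UQCRC1, a core protein on the matrix side, measured 195 and 193 RPKM in KO clones with 4-OHT, against 96.5 and 103 RPKM in KO clones without it. WT clones had 193 and 191 RPKM with 4-OHT, against 131 and 145 RPKM without it. With 4-OHT all 4 libraries lay within a narrow band, whereas without it the KO clones were below the WT clones. It rose by 0.96 ± 0.08 in KO clones, with the smallest adjusted p of any member (4.91e-05), and by 0.48 ± 0.08 in WT clones (adjusted p = 0.0017).

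UQCRFS1, the Rieske iron-sulfur protein, had 33.7 and 36.9 RPKM in KO clones with 4-OHT, against 24.3 and 24.4 RPKM in KO clones without it. WT clones had 38.7 and 36.3 RPKM with 4-OHT, against 26.1 and 27.5 RPKM without it. The Rieske message rose by 0.53 in KO (adjusted p = 0.000803) and 0.48 in WT clones (adjusted p = 0.00165). UQCRH, the hinge protein that sits beside cytochrome c1, rose by 0.72 in KO and 0.73 in WT clones, and UQCRHL, a retrocopy of UQCRH whose reads may be shared with it, by 0.78 in KO and 0.60 in WT clones. In KO clones 2 members fell. UQCR11, a small accessory subunit, read 5.12 and 5.36 RPKM in KO clones with 4-OHT, against 7.17 and 8.43 RPKM in KO clones without it. WT clones had 6.30 and 7.43 RPKM with 4-OHT, against 8.43 and 6.71 RPKM without it. The KO groups were apart and the WT groups overlapped (-0.56 ± 0.15 in KO, adjusted p = 0.0131; -0.13 ± 0.15 in WT, adjusted p = 0.479). UQCRC2, the partner core protein of UQCRC1, fell by 0.29 in KO clones (adjusted p = 0.0106) and stood at -0.09 ± 0.07 in WT clones (adjusted p = 0.355). The UQCRHL call in WT clones was lost without the 4-OHT library of WT clone 15 (adjusted p = 0.12), without its untreated library (0.0755) and without the filter on low values (0.0597). The UQCR11 call was lost without the 4-OHT library of KO clone 66 (adjusted p = 0.0648) or the untreated library of KO clone 69 (0.089), and the UQCRC2 call without that untreated library too (0.076).

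Complex IV, cytochrome c oxidase, had few calls in WT clones, where 1 of 11 tested subunits rose and 0 fell. With voom weights on recovered reads these counts were 2 and 0, and at an unadjusted p under 0.05 they were 2 and 1. In KO clones 4 rose and 1 fell. The shares higher were 36.4% in KO and 9.09% in WT clones, beside 28.7% and 25.2% of all genes. For lower calls complex IV stood at 9.09% in KO and 0% in WT clones, beside 26.9% and 23.7% of all genes. Its WT median of 0.09 turned to -0.01 without the untreated library of WT clone 54 and to -0.08 without both libraries of that clone, and 5 of 11 were higher without the untreated library of WT clone 15. COX5A, a nuclear subunit on the matrix side, had 49.0 and 52.96 RPKM in KO clones with 4-OHT, against 33.01 and 34.8 RPKM in KO clones without it. WT clones had 49.9 and 49.8 RPKM with 4-OHT, against 32.6 and 26.8 RPKM without it. It was called in both genotypes, with 0.59 ± 0.10 in KO (adjusted p = 0.00208) and 0.75 ± 0.10 in WT clones (adjusted p = 0.000815). COX4I1, the ubiquitous isoform of the largest nuclear subunit, measured 83.7 and 79.97 RPKM in KO clones with 4-OHT, against 68.1 and 74.04 RPKM in KO clones without it. WT clones had 74.3 and 83.5 RPKM with 4-OHT, against 78.7 and 80.6 RPKM without it. The KO values were apart and the WT values overlapped, and neither response passed the threshold (adjusted p = 0.07 in KO and 0.886 in WT). Its hypoxia- and lung-associated isoform COX4I2 had 0 reads in all 8 libraries.

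Several subunits of complex IV come in ubiquitous and tissue-restricted forms, and for COX6A, COX6B, COX7B and COX8 the reads lay on the ubiquitous ones. COX6A1 was at 78.4 and 75.7 RPKM in KO clones with 4-OHT, against 59.5 and 60.9 RPKM in KO clones without it. WT clones had 60.9 and 81.96 RPKM with 4-OHT, against 64.2 and 42.3 RPKM without it. Its WT groups overlapped and it was not called, while its heart and muscle isoform COX6A2 had 0 reads. COX6B1 read 200.0 and 217 RPKM in KO clones with 4-OHT, against 202 and 206 RPKM in KO clones without it. WT clones had 203 and 208 RPKM with 4-OHT, against 206 and 194 RPKM without it. No group of COX6B1 stood apart, and its testis isoform COX6B2 had 3 reads in all. COX8A had 218 and 208 RPKM in KO clones with 4-OHT, against 142 and 145 RPKM in KO clones without it. WT clones had 163 and 214 RPKM with 4-OHT, against 162 and 148 RPKM without it. It rose in KO clones (0.57 ± 0.12, adjusted p = 0.00612) but not past the threshold in WT clones (0.27 ± 0.12, adjusted p = 0.115); COX8C, known from testis, had 2 reads. COX7B measured 31.1 and 33.8 RPKM in KO clones with 4-OHT, against 27.7 and 27.0 RPKM in KO clones without it. WT clones had 30.7 and 30.4 RPKM with 4-OHT, against 30.7 and 22.9 RPKM without it. It was called in neither genotype, and COX7B2 had 1 read.

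COX7A1, the heart and muscle isoform of subunit 7a, was expressed in these fibroblasts. It read 51.99 and 53.4 RPKM in KO clones with 4-OHT, against 73.5 and 76.97 RPKM in KO clones without it. WT clones had 70.6 and 79.95 RPKM with 4-OHT, against 81.3 and 70.4 RPKM without it. It fell in KO clones (-0.51 ± 0.10, adjusted p = 0.00287), where the groups were apart, and stood at -0.01 ± 0.10 in WT clones (adjusted p = 0.937), where they overlapped. COX7A2, its ubiquitous counterpart, had 120.3 and 124 RPKM in KO clones with 4-OHT, against 91.1 and 94.8 RPKM in KO clones without it. WT clones had 104 and 118 RPKM with 4-OHT, against 101 and 78.6 RPKM without it. It rose in KO clones (0.40 ± 0.12, adjusted p = 0.0286; in WT 0.31 ± 0.12, adjusted p = 0.0734). The KO call of COX7A2 was lost without any 1 of the 4 KO libraries (adjusted p 0.083 to 0.122) and without the filter on low values (0.0737). COX7A2L, a supercomplex assembly factor that the name rule takes in, had 1 read in all and was not tested. NDUFA4, named for complex I and now known as a complex IV subunit, was at 46.3 and 47.7 RPKM in KO clones with 4-OHT, against 54.6 and 55.97 RPKM in KO clones without it. WT clones had 45.4 and 48.0 RPKM with 4-OHT, against 52.2 and 42.5 RPKM without it. Its KO values were lower with 4-OHT without overlap, short of a call (adjusted p = 0.0826), and its WT values overlapped (adjusted p = 0.93).

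Complex V, the ATP synthase, had 7 of 17 tested members higher in KO clones and 6 in WT clones, and 0 lower in each. In the lower direction there were also 0 at an unadjusted p under 0.05 and 0 by voom weights on recovered reads. The shares higher were 41.2% in KO and 35.3% in WT clones, beside 28.7% and 25.2% of all genes. Of all genes, 26.9% were lower in KO and 23.7% in WT clones. ATP5F1B, the catalytic beta subunit, measured 398 and 402 RPKM in KO clones with 4-OHT, against 247 and 262 RPKM in KO clones without it. WT clones had 391 and 410.0 RPKM with 4-OHT, against 276 and 279 RPKM without it. The libraries with 4-OHT were all higher, with a rise of 0.65 ± 0.07 in KO clones (adjusted p = 0.000161) and 0.53 ± 0.07 in WT clones (adjusted p = 0.000594). ATP5F1A, the alpha subunit of the same catalytic head, had 321 and 324 RPKM in KO clones with 4-OHT, against 252 and 271 RPKM in KO clones without it. WT clones had 286 and 311 RPKM with 4-OHT, against 269 and 303 RPKM without it. It rose in KO clones (0.30 ± 0.09, adjusted p = 0.0193), and in WT clones the groups overlapped (0.06 ± 0.09, adjusted p = 0.589). The KO call of ATP5F1A was lost without either library of KO clone 66 (adjusted p = 0.0733 with the 4-OHT library left out and 0.122 with the untreated one) and without the 4-OHT library of KO clone 69 (0.081). ATP5PB, the b subunit of the peripheral stalk, rose by 0.60 in KO and 0.60 in WT clones.

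The c subunit of the membrane ring is made from 3 genes that encode the same mature protein. ATP5MC1 read 111 and 115 RPKM in KO clones with 4-OHT, against 85.7 and 83.5 RPKM in KO clones without it. WT clones had 138 and 131 RPKM with 4-OHT, against 100.2 and 102 RPKM without it. It was higher with 4-OHT in all clones (0.42 in KO, adjusted p = 0.00121; 0.41 in WT, adjusted p = 0.00165). ATP5MC3 had 12.3 and 11.2 RPKM in KO clones with 4-OHT, against 7.36 and 8.60 RPKM in KO clones without it. WT clones had 11.5 and 14.3 RPKM with 4-OHT, against 9.42 and 9.71 RPKM without it. It rose as well (0.56 in KO, adjusted p = 0.00731; 0.42 in WT, adjusted p = 0.0279). ATP5MC2 was at 212 and 212 RPKM in KO clones with 4-OHT, against 240.4 and 222 RPKM in KO clones without it. WT clones had 214 and 219 RPKM with 4-OHT, against 242 and 181 RPKM without it. Its KO values were lower with 4-OHT and its WT groups overlapped, and it was not called in either genotype. ATP5IF1, the inhibitor of reverse ATP hydrolysis, measured 125 and 109.7 RPKM in KO clones with 4-OHT, against 105 and 103 RPKM in KO clones without it. WT clones had 150.1 and 139 RPKM with 4-OHT, against 129 and 117 RPKM without it. The inhibitor message was higher with 4-OHT in each clone but was not called (adjusted p = 0.138 in KO and 0.064 in WT). The WT call of ATP5MC3 was lost without either untreated WT library (0.0856 for clone 15 and 0.0599 for clone 54) and without the 4-OHT library of clone 54 (0.158), and its KO call without the untreated library of KO clone 66 (0.0546).

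Some ubiquitous subunits had few reads. NDUFA7 had 15 reads in all 8 libraries, NDUFA13 28, ATP5MF 51 and NDUFA11 71, and NDUFA9 reached a mean of 0.965 RPKM. Each shares between 7.1% and 79.4% of its listed transcript with another annotated gene on the same strand, such as a readthrough gene. Counted over all annotated exons of a gene, 25 of the 87 members share bases on the same strand. Overlap and low counts did not always go together. COX7A2L, with 1 read, shares 0% of its listed transcript, whereas NDUFV2 shares 82.9% at a mean of 89.3 RPKM, ATP5MC2 68.7% at 217.9 RPKM and NDUFC1 57.3% at 90.6 RPKM before scaling. Reads that fit more than 1 gene are often left uncounted by gene counting tools; whether that was so here was not tested. RPKM divides by the length of the listed transcript, which ran from 300 to 13566 bases among members, so levels of different genes are less certain than changes of the same gene. Over tested members the mean level ran from 0.158 to 392 RPKM with a median of 69.4. Of the 38 tested members under 1 kb, 16 rose and 2 fell in KO clones, against 20 and 4 of the 38 longer ones. In WT clones 13 rose and 2 fell, against 15 and 1. Median changes of short against longer members were 0.18 against 0.31 in KO and 0.25 against 0.20 in WT clones. For KO minus WT without 4-OHT they were -0.01 against -0.12.

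Set against WT clones, KO clones differed in few members. Without 4-OHT, 4 of 76 members were lower in KO clones and 0 were higher. That is 5.26%, beside 6.33% of all genes (3.75% lower and 2.58% higher). At an unadjusted p under 0.05, 16 were lower and 0 higher, and voom weights called 5 lower and 0 higher. The 4 calls included UQCRC1 (-0.47 ± 0.08, adjusted p = 0.0194), ATP5ME (-0.64 ± 0.14, adjusted p = 0.0397) and ATP5PO (-0.40 ± 0.09, adjusted p = 0.0437). For each of these the KO values without 4-OHT lay below both WT values without it. The median member differed by -0.08, against -0.01 over all genes. All 4 calls were lost when the untreated library of KO clone 66, KO clone 69 or WT clone 54 was left out (adjusted p 0.0505 to 0.212), and without that of WT clone 15 there were 15 calls, 10 of them higher in KO.

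With 4-OHT, 4 of 76 members were again lower in KO clones and 0 higher. That is 5.26%, beside 14.4% of all genes (7.65% lower and 6.72% higher). At an unadjusted p under 0.05, 11 were lower and 2 higher, and voom weights called 5 lower and 0 higher. They were different members: COX7A1 (-0.51 ± 0.10, adjusted p = 0.0164), NDUFC2 (-0.44 ± 0.08, adjusted p = 0.0139), NDUFV3 (-0.40 ± 0.07, adjusted p = 0.016) and ATP5MC1 (-0.25 ± 0.07, adjusted p = 0.0433). For each of the 4 the KO values with 4-OHT, given above, lay below both WT values with it. The median member differed by -0.03, against -0.01 over all genes. No call was left without the 4-OHT library of WT clone 15, KO clone 66 or KO clone 69 (adjusted p of the 4 from 0.0525 to 0.195), and those of COX7A1 and ATP5MC1 were also lost without that of WT clone 54 (0.0731 and 0.0915).

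The difference between the responses, the KO change minus the WT change, was tested in the same fit. It was called in 4 of 76 members (5.26%, beside 7.45% of all genes, 4.37% higher and 3.08% lower): 3 higher and 1 lower, or 4 higher and 0 lower when only library size was used for scaling. ATP5PO, the peripheral stalk subunit that confers oligomycin sensitivity (ENSG00000241837.7, chr21:33903453-33915980 on the minus strand in GRCh38), had 30.2 and 29.7 RPKM in KO clones with 4-OHT, against 19.8 and 21.6 RPKM in KO clones without it. WT clones had 24.98 and 26.1 RPKM with 4-OHT, against 25.6 and 29.5 RPKM without it. The KO clones without 4-OHT were the lowest, and the difference of responses was 0.64 ± 0.13 (adjusted p = 0.0283), with a rise in KO clones (0.53, adjusted p = 0.00177) and no call in WT clones (-0.11, adjusted p = 0.367). ATP5ME, subunit e, which helps hold ATP synthase dimers (ENSG00000169020.10, chr4:672436-674338 on the minus strand), read 70.8 and 71.9 RPKM in KO clones with 4-OHT, against 44.9 and 49.5 RPKM in KO clones without it. WT clones had 54.8 and 72.98 RPKM with 4-OHT, against 69.1 and 78.6 RPKM without it. Again the KO clones without 4-OHT were lowest, and the difference was 0.82 ± 0.19 (adjusted p = 0.049). ATP5ME has the shortest listed transcript of the members (300 bases). Its 4-OHT values in WT clones 15 and 54 differed more from each other than those of the KO clones. MYL5, on the opposite strand, overlaps 39.7% of that transcript, and the strand mode is not given. On the same strand, NDUFC2 shares 17.1% of its listed transcript with NDUFC2-KCTD14, ATP5PO 19.6% of its exon bases with AP000311.1, and UQCRC1 0%. The part of these overlaps in the calls was not tested.

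For UQCRC1 (ENSG00000010256.11, chr3:48599002-48610976 on the minus strand) the means were 194 ± 1.06 RPKM in KO clones with 4-OHT against 99.5 ± 4.27 RPKM without it, and 192 ± 1.46 RPKM in WT clones with 4-OHT against 138 ± 10.3 RPKM without it (SD, n = 2 each). The difference of responses was 0.48 ± 0.11 (adjusted p = 0.0396), with an adjusted p of 0.0568 with the clone as a block. For NDUFC2 (ENSG00000151366.13, chr11:78068304-78080219 on the minus strand) the means were 32.2 ± 0.266 RPKM in KO clones with 4-OHT against 49.4 ± 2.76 RPKM without it, and 43.7 ± 2.74 RPKM in WT clones with 4-OHT against 45.7 ± 1.42 RPKM without it. Its difference of responses was -0.55 ± 0.11 (adjusted p = 0.0283), and COX7A1 came close with -0.50 ± 0.13 (adjusted p = 0.0689). All 4 calls were lost when the 4-OHT library of WT clone 15 or any 1 of the 4 KO libraries was left out (adjusted p 0.0723 to 0.155), and some also without a library of WT clone 54 (UQCRC1 0.089 and ATP5PO 0.0594 without the 4-OHT library, UQCRC1 0.0584 and ATP5ME 0.102 without the untreated one). The median member differed by 0.01 between responses, against -0.01 over all genes.

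**Figure D4:**
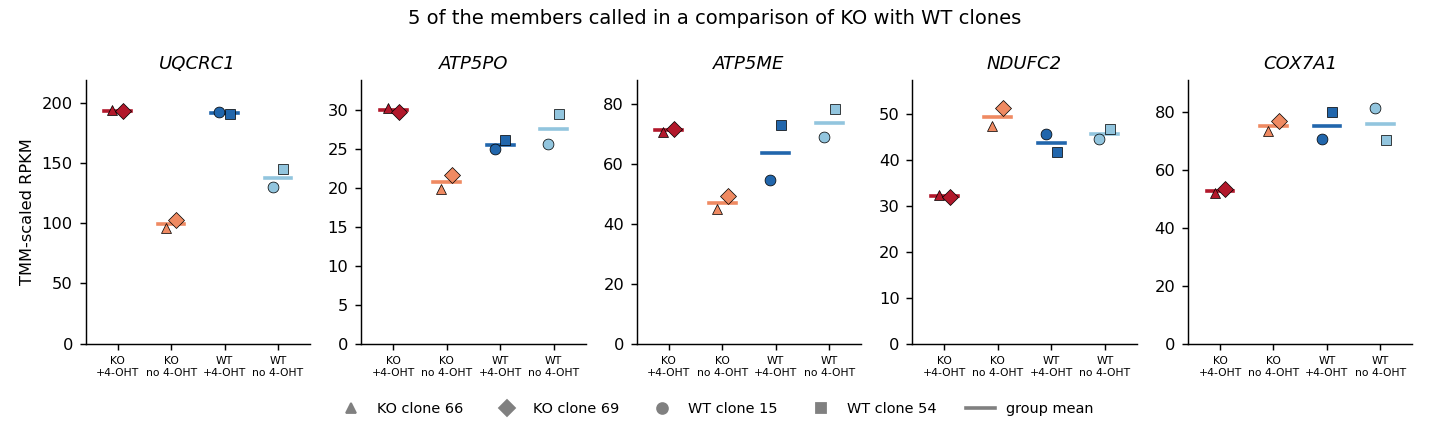
TMM-scaled RPKM (vertical axes start at 0) of 5 members in the 4 groups; points are clones and lines the means of 2. UQCRC1, ATP5PO and ATP5ME are lowest in KO clones without 4-OHT, and NDUFC2 and COX7A1 are lowest in KO clones with 4-OHT.

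Assembly factors, which build the complexes without staying in them, were also more often higher than lower with 4-OHT. Of 49 tested, 27 rose and 3 fell in KO clones and 26 rose and 5 fell in WT clones. The medians were 0.46 in KO and 0.44 in WT clones. Among all genes tested, 28.7% rose and 26.9% fell in KO clones, and 25.2% rose and 23.7% fell in WT clones. BCS1L, which inserts the Rieske protein into complex III, had 18.99 and 19.6 RPKM in KO clones with 4-OHT, against 7.03 and 7.66 RPKM in KO clones without it. WT clones had 19.1 and 20.2 RPKM with 4-OHT, against 9.01 and 9.13 RPKM without it. That was a rise of 1.38 in KO (adjusted p = 1.45e-05) and 1.11 in WT clones (adjusted p = 4.77e-05). TTC19, which clears Rieske fragments from the same complex, fell in both, by 0.42 in KO and 0.23 in WT clones. NDUFAB1, the acyl carrier protein of complex I, lies outside the name rule; it rose by 1.15 in KO and 0.93 in WT clones. CYCS, cytochrome c itself, rose by 0.93 in KO and 1.17 in WT clones.

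Of 13 tricarboxylic acid cycle genes, which supply NADH and succinate, 10 rose and 1 fell in KO clones. In WT clones 9 rose and 1 fell. These counts, and those of regulators and carriers below, stand beside 28.7% of all genes higher and 26.9% lower in KO clones. For WT clones the shares of all genes were 25.2% higher and 23.7% lower. CS, citrate synthase, rose by 0.63 in KO and 0.62 in WT clones. Of 12 regulators 7 rose and 2 fell in each genotype. The lists were not the same, with NRF1 called higher in KO clones alone and PPARGC1B in WT clones alone. YY1 was called in neither genotype, and no regulator was called for the difference of responses. PPARGC1A, the coactivator gene, fell to 0.285 and 0.173 RPKM in KO clones with 4-OHT, against 1.36 and 1.51 RPKM without it, and to 0.206 and 0.152 RPKM in WT clones with 4-OHT, against 0.901 and 1.004 RPKM without it. The coactivator message was lower with 4-OHT in all 4 clones. TFB1M, a mitochondrial rRNA methyltransferase, rose by 1.83 in KO and 1.20 in WT clones, and TFAM, which packages and transcribes mitochondrial DNA, by 0.86 in KO and 0.47 in WT clones. GABPA fell by 0.68 in KO and 0.35 in WT clones, and its partner GABPB1 rose by 0.86 in KO and 0.63 in WT clones. Of 3 tested carriers, 1 rose in KO clones (median -0.14) and 2 in WT clones (median 0.53). SLC25A3, the phosphate carrier, stood at -0.14 ± 0.07 in KO (adjusted p = 0.106) and -0.02 ± 0.07 in WT clones (adjusted p = 0.863). SLC25A4, the muscle and heart adenine nucleotide translocator, rose in WT clones (0.53 ± 0.15, adjusted p = 0.0237) and stood at -0.24 ± 0.15 in KO clones (adjusted p = 0.215). SLC25A5, an adenine nucleotide translocator that exports ATP, was at 133 and 133 RPKM in KO clones with 4-OHT, against 59.5 and 59.4 RPKM in KO clones without it. WT clones had 94.2 and 101 RPKM with 4-OHT, against 63.7 and 68.9 RPKM without it. Its 2 responses differed by 0.60 ± 0.10 (adjusted p = 0.0172).

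The 13 subunits encoded by mitochondrial DNA were mostly lower with 4-OHT in KO clones. There 10 of 13 fell with 4-OHT and 0 rose (median -0.59; 0 rose at an unadjusted p under 0.05 and 0 by voom weights), whereas in WT clones 5 rose and 0 fell (median 0.28; 0 fell at an unadjusted p under 0.05 and 0 by voom weights). Without 4-OHT 6 of the 13 were higher in KO than in WT clones, and with 4-OHT 4 were lower. The difference of responses was called lower in 9, with a median of -0.84. Over all genes tested, 28.7% rose and 26.9% fell with 4-OHT in KO clones, and 25.2% rose and 23.7% fell in WT clones. Between genotypes, 2.58% of all genes were higher in KO and 3.75% lower without 4-OHT, and 6.72% and 7.65% with it. The difference of responses was higher in 4.37% of all genes and lower in 3.08%. MT-CO1, the catalytic subunit of complex IV, read 361 and 326 RPKM in KO clones with 4-OHT, against 868 and 886 RPKM in KO clones without it. WT clones had 674 and 582 RPKM with 4-OHT, against 649.5 and 489 RPKM without it. Its KO values without 4-OHT were the highest and those with it the lowest, and its responses differed by -1.51 ± 0.20 (adjusted p = 0.00789). MT-ND4, a proton-pumping subunit of complex I, had 22.3 and 25.0 RPKM in KO clones with 4-OHT, against 47.2 and 47.1 RPKM in KO clones without it. WT clones had 33.8 and 29.7 RPKM with 4-OHT, against 32.5 and 32.6 RPKM without it. It fell by 1.00 in KO clones and stood at -0.04 ± 0.09 in WT clones (difference of responses -0.96 ± 0.13, adjusted p = 0.00789).

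Mitochondrial messages made up 0.127% to 0.283% of reads in any library, and nuclear copies of mitochondrial DNA make their counting less certain. Over all alternatives run, 7 to 10 of the 13 fell in KO clones and 2 to 8 rose in WT clones; the difference of responses was lower in 4 to 11, and the KO to WT calls came to 0 to 11 higher without 4-OHT and 0 to 4 lower with it. The 6 calls without 4-OHT were all lost when the untreated library of KO clone 66 or 69 was left out, and the 4 calls with 4-OHT when the 4-OHT library of KO clone 69 or WT clone 15 was left out. The nuclear members, by contrast, had medians of 0.09 and 0.12 relative to each gene's mean of 8 libraries in KO clones with 4-OHT, against -0.18 and -0.13 without it, and 0.09 and 0.16 in WT clones with 4-OHT, against -0.02 and -0.18 without it. The mitochondrially encoded subunits stood at -0.25 and -0.17 in KO clones with 4-OHT, against 0.46 and 0.31 without it, and at 0.19 and -0.04 in WT clones with 4-OHT, against -0.21 and -0.28 without it.

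**Figure D5:**
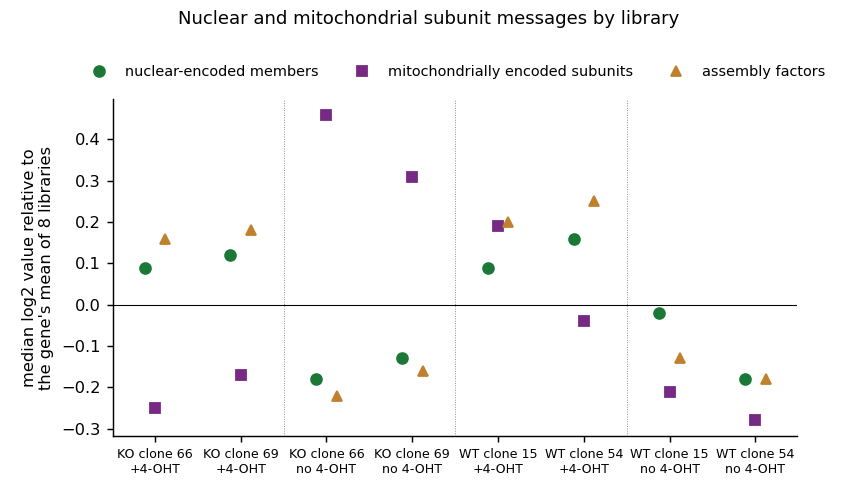
Median over the members of a list of the log2 value relative to each gene's mean of 8 libraries (vertical axis), for each library. Nuclear-encoded members and assembly factors are above 0 in all libraries with 4-OHT and below 0 without it, while the mitochondrially encoded subunits are highest in KO clones without 4-OHT and below 0 in KO clones with it.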

How the data were processed

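RNA was measured by sequencing of total RNA in 8 libraries of BJ-HRAS cells, in 4 groups of 2 clones. The tools STAR, featureCounts and edgeR and the build GRCh38 stand in the submitters' processing notes, with settings, versions and strand mode not given in the sources used here. A single table of 58870 genes was deposited, and by its values it holds RPKM, although its name speaks of counts. Its columns carry a clone number, some with a minus after it, per the file headers; the minus was taken to mean no 4-OHT, which no label spells out. For genes in the pseudoautosomal region, 45 second rows (the Y copy) were dropped.

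Multiplied by the listed transcript length (GENCODE release 29) and 1 library total, 100% of 159719 values above 0 came out as whole reads within 0.1 read. The length came from another version of the transcript for 1055 genes, and from the spacing of a gene's own values for 5621. Library totals of 22.1 to 24.9 M make 1 read at 1 kb worth 0.0401 to 0.0453 RPKM.

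RPKM values were divided by TMM factors computed from the recovered reads (0.9404 to 1.035). Genes were kept with a CPM of 0.426 (10 reads at the median library) in at least 2 libraries and 15 reads in all. The model was 4 group means on log2(RPKM + 0.1), fitted by limma 3.58.1 (R 4.3.3; 4 residual degrees of freedom, intensity trend, robust moderation), with two-sided p-values adjusted by Benjamini-Hochberg over 16540 genes. A fold change on this scale understates the change of low genes. The fit was run on simulated reads with known changes in KO clones with 4-OHT and no clone effects. That run cannot show how the calls fare where libraries of a clone vary together.

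The members, the lists of other genes and the markers were chosen with earlier results of these data known. Values in every library were given for the complex II subunits, core or catalytic subunits of complexes I, III and V, and COX4I1 and COX5A. Isoform pairs, NDUFA4 and ATP5IF1 were given too. In each comparison, the 2 members with the smallest p and up to 3 called members a direction with the largest fold were added. Other members are given by ranges. Clone numbers pair libraries with and without 4-OHT because these come from the same clone; deviations from group means correlated at 0.31 for WT and 0.01 for KO. Alternatives were other pseudocounts, no filter, other scalings, voom weights, the compared libraries alone, the clone block and leaving out libraries. Motifs were searched on both strands of RefSeq promoters (GRCh38.p14). Values of 1 member are not reported here.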

Additional observations from a re-analysis of the deposited data

Results flagged for a closer look

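Responses of 4 members to 4-OHT differed between genotypes in the test of the difference itself (KO change minus WT change, limma, Benjamini-Hochberg adjusted over all genes). It was 0.82 for ATP5ME (adjusted p = 0.049), 0.64 for ATP5PO (adjusted p = 0.0283), 0.48 for UQCRC1 (adjusted p = 0.0396) and -0.55 for NDUFC2 (adjusted p = 0.0283), on the log2 scale. For the first 3 a difference between KO and WT clones was called without 4-OHT, and for NDUFC2 with it. In the other state, ATP5PO with 4-OHT and NDUFC2 without it had both KO values above both WT values, with no call. Each rests on 2 clones a group. With the clone as a block UQCRC1 was not called (adjusted p = 0.0568), and all 4 calls were lost when any 1 of the 4 KO libraries was left out.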

How the results depend on the processing

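Over all alternatives the members called in the KO response stayed between 33 and 53 (42 as reported) and in the WT response between 24 and 38 (31 as reported). No called value of a named member changed sign, and 28 of 36 KO rises and 17 of 28 WT rises were called under every alternative, as were 2 of 6 KO falls and 0 of 3 WT falls. With the clone as a replicate block the counts were 44 in KO, 31 in WT and 4 for the difference of responses. Library size alone as scaling gave 41 and 30, with the median of all genes at -0.05 in KO and -0.08 in WT. None of the KO to WT calls or of the calls on the difference of responses was kept under every alternative. Those counts, 4 each as reported, changed as follows. For KO against WT without 4-OHT the count was 1 without the filter on low values, 0 with the 4 compared libraries alone and 0 to 15 with 1 library left out. For KO against WT with 4-OHT it was 0 to 3 with 1 library left out. For the difference of responses it was 0 without the filter and 0 to 12 with 1 library left out; without both libraries of WT clone 54, an alternative chosen after seeing the data, it was 5. Without the filter every gene with a read entered both the fit and the adjustment. The cause of these changes in the counts was not tested. A group left with 1 clone is assumed to vary like the others. The 11 members not tested had too few reads for the filter at this depth; the cause of their low counts was not tested.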
